A study of Homo sapiens with 8 samples.

Results

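The 10 genes described here encode the interleukin-6 (IL6) family route to the transcription factor STAT3: the ligands IL6 and LIF, the receptor chains IL6R, IL6ST and OSMR, the kinases JAK1 and JAK2, STAT3 itself, its feedback inhibitor SOCS3 and its coactivator EP300. They were listed by name and looked up by symbol, and all 10 were found among the 25369 symbols of the table. RNA-seq was done on MCF10A cells, an established line of non-malignant human mammary epithelium, 7 days after their encapsulation in 1 of 4 hydrogels, and each gel is represented by 2 libraries. The question was how stiffness and matrix composition act on these cells in 3 dimensions. Soft IPN and stiff IPN were interpenetrating networks of alginate and reconstituted basement membrane (rBM), and the stiff IPN was stiffened by calcium crosslinking of the alginate. The IPN pair therefore differed in calcium crosslinking. Soft col:rBM was a mixture of collagen I (col-1) and rBM, and stiff col was named for col-1 alone. The sample titles do not say whether stiff col held rBM, and the study's methods give the same final rBM concentration for all experiments. Stiff col differed from stiff IPN in col-1, alginate and calcium crosslinking at once, and possibly in rBM. From soft col:rBM it may have differed in col-1 and rBM as well as in stiffness. MCF10A is 1 line, so the libraries do not sample different donors.

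In this pathway a ligand binds its own receptor chain, which pairs with the shared signal-transducing chain gp130 (IL6ST) and brings the kinases JAK1 and JAK2 together. The kinases phosphorylate STAT3, which enters the nucleus and switches on genes that include SOCS3, a protein that in turn blocks the receptor and kinases. IL6 signals through IL6R, while LIF signals through LIFR and oncostatin M through OSMR, all with gp130. STAT3 activity is set mainly by phosphorylation, which RNA abundance does not measure.

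Between 13065615 and 18583116 reads per library lay on genes, with the lowest number in stiff IPN replicate 2. Values are normalized counts, which are reads divided by 1 factor per library, and 3 reads were worth 2.41 to 3.73 normalized counts. All 12 epithelial markers were expressed, with summed levels of 112544 to 189223 normalized counts. Of the fibroblast markers 2 of 7 passed the filter on low values, COL1A2 was at 0 in every library, and the sums ran from 775 to 1468. Of the immune markers 3 of 7 passed and PTPRC was at 0, but the sum was 528 to 1646 in stiff IPN against 2216 to 4573 in soft IPN, 1450 to 5179 in soft col:rBM and 1109 to 4608 in stiff col. Most of that sum was CD68, a lysosomal protein, and its part in the results was not tested. Of the endothelial markers 2 of 5 passed, with sums of 39 to 270. In bulk RNA, fewer cells of a type and less RNA per cell cannot be told apart.

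Of the 10 genes, 9 were tested, among 13369 genes in all with at least 10 normalized counts in at least 2 libraries. Per kilobase of annotated exon, and averaged over all libraries, OSMR had the highest level at 418 normalized counts. STAT3 followed with 212, JAK1 with 179, IL6ST with 169 and IL6R with 99.2 normalized counts per kilobase. EP300 had 41.2, LIF 30.8, JAK2 17.8 and SOCS3 11.2 normalized counts per kilobase. This order of averages did not hold in every gel, since in stiff IPN LIF was at 86.9 normalized counts per kilobase and IL6R at 54.7.

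**Figure D1:**
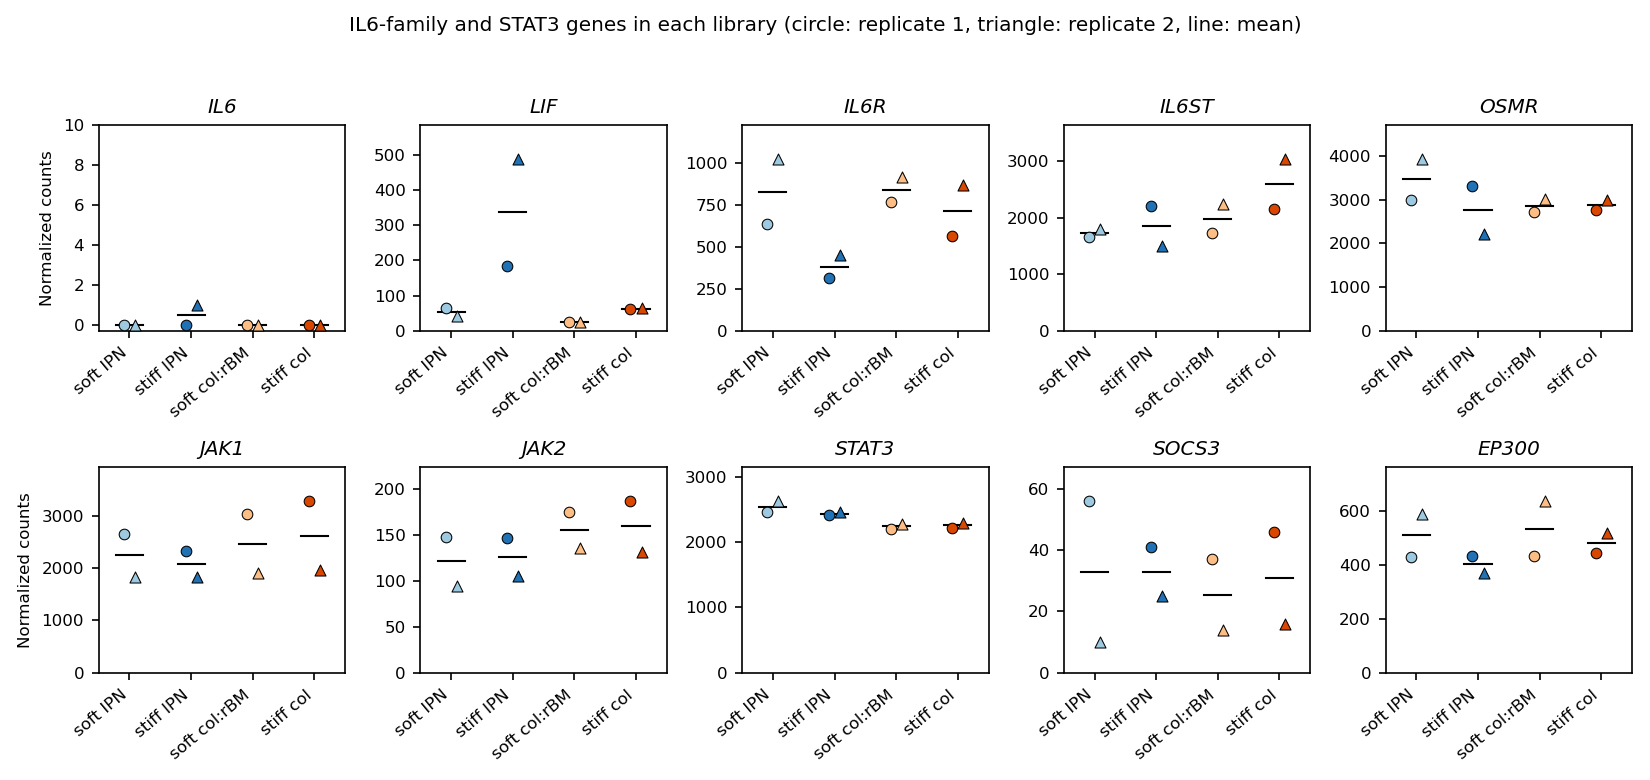
Normalized counts (y axes, linear, 1 scale per gene) of the 10 genes in the 4 gels (x axes), with a circle for replicate 1, a triangle for replicate 2 and a line at the mean of both. LIF stands above all other libraries in stiff IPN (185 and 488) and IL6R stands below them (315 and 450), while SOCS3, JAK1 and JAK2 are lower in replicate 2 than in replicate 1 in every gel.

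IL6 (chr7:22765503-22771621, plus strand, hg19), the cytokine that gives the family its name, was not detectable at this depth. It was listed at 0 in every library of soft IPN, soft col:rBM and stiff col, and 0 and 1 normalized count in stiff IPN. The single count lies under the level of 3 reads in that library (3.28 normalized counts), so no fold was formed and no test was made.

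LIF (chr22:30636442-30642748, minus strand) encodes leukemia inhibitory factor, a secreted ligand of LIFR and gp130. It stood at 65 and 41 normalized counts in soft IPN, 185 and 488 in stiff IPN, 25 and 25 in soft col:rBM, and 61 and 64 in stiff col. Both stiff IPN libraries were above all 6 others, but they differed from each other by more than the libraries of any other gel did. The means were 53 ± 17.0 (SD, n = 2) in soft IPN, 336.5 ± 214 in stiff IPN, 25 ± 0 in soft col:rBM and 62.5 ± 2.12 in stiff col. Soft IPN and stiff col, the middle pair in this order, overlapped, and soft col:rBM was below both.

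In stiff IPN, LIF was 5.73-fold higher than in soft IPN, a log2 fold change of 2.52 (SE 0.49). The difference was 1.49 within replicate 1 and 3.54 within replicate 2 on the log2 scale. In limma with Benjamini-Hochberg adjustment over all genes tested, it did not pass without a block (adjusted p = 0.410), and with the replicate number as a block LIF rose (adjusted p = 0.0326, 95% confidence interval 1.5 to 3.54). Without stiff IPN replicate 2 the log2 fold change was 1.82, and without stiff IPN replicate 1 it was 3.22.

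Against stiff IPN, LIF in stiff col was 4.75-fold lower (log2 fold change -2.25, SE 0.49). Adjusted p was 0.353 without the block and 0.0447 with it, again by limma with Benjamini-Hochberg adjustment, and the interval with the block was -3.27 to -1.23. This comparison uses the same stiff IPN libraries as the one with soft IPN, so they are not independent. Without stiff IPN replicate 2 the log2 fold change was -1.55. Between the collagen gels, LIF was at 61 and 64 normalized counts in stiff col against 25 and 25 in soft col:rBM, without overlap, with a log2 fold change of 1.29 (SE 0.49). That difference did not pass with or without the block (adjusted p = 1 in limma in both), although the interval with the block was 0.27 to 2.31. Fitted on the 4 collagen libraries alone, with the block, it did pass (adjusted p = 0.00565 in limma). That fit was chosen after seeing the data and has few libraries from which to estimate the spread. The share of all genes passing in it is not given, so no conclusion is drawn from it.

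IL6R (chr1:154377669-154441926, plus strand) encodes the alpha chain that binds IL6 and confers the response to it. It was measured at 635 and 1025 normalized counts in soft IPN, 315 and 450 in stiff IPN, 769 and 918 in soft col:rBM, and 567 and 869 in stiff col. The 2 stiff IPN libraries were the lowest of the 8, and the other 3 gels overlapped one another. Means were 830 ± 276 (SD, n = 2) in soft IPN, 382.5 ± 95.5 in stiff IPN, 843.5 ± 105 in soft col:rBM and 718 ± 214 in stiff col.

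In stiff IPN, IL6R was 2.14-fold lower than in soft IPN (log2 fold change -1.10, SE 0.33), by -1.01 within replicate 1 and -1.19 within replicate 2. In limma with Benjamini-Hochberg adjustment the adjusted p was 0.493 without the block and 0.0239 with it, with an interval of -1.46 to -0.74 in the fit with the block. In stiff col it was 1.86-fold higher than in stiff IPN (log2 fold change 0.90, SE 0.33), by 0.85 and 0.95 in the 2 replicates. There the adjusted p from limma was 0.680 without the block and 0.0318 with it (interval 0.54 to 1.26). IL6R replicate 2 exceeded replicate 1 in all 4 gels, by 0.26 to 0.69 on the log2 scale, as 21.4% of all genes tested did in every gel, and this shift is removed by the block. Without soft IPN replicate 2 the log2 fold change between the IPNs was -0.75, and without stiff col replicate 2 that between stiff col and stiff IPN was 0.59.

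**Figure D2:**
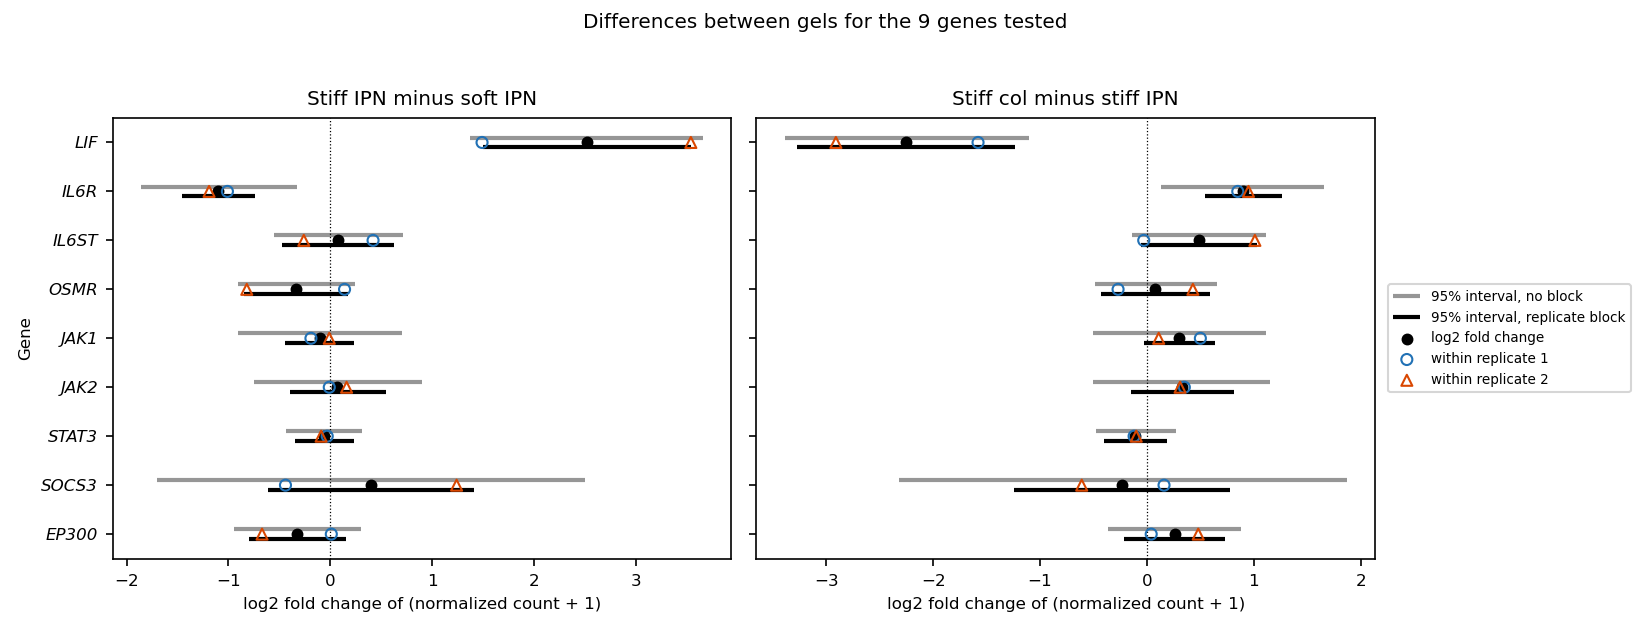
Log2 fold changes (x axes, of normalized count + 1) of the 9 tested genes (y axis) for stiff IPN against soft IPN (left) and stiff col against stiff IPN (right). Filled points are the estimates from limma, grey and black bars their 95% intervals without and with the replicate block, and open circles and triangles the differences within replicates 1 and 2; with the block, the intervals of LIF and IL6R lie wholly on 1 side of 0 in both panels and those of the other 7 genes include 0.

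IL6ST (chr5:55230923-55290850, minus strand), the gp130 chain that all these ligands share, was at 1649 and 1801 normalized counts in soft IPN, 2203 and 1505 in stiff IPN, 1722 and 2244 in soft col:rBM, and 2154 and 3031 in stiff col. Its difference between the IPNs was 0.42 within replicate 1 and -0.26 within replicate 2, so the direction was not shared. Both stiff col libraries were above both soft IPN libraries, and the other pairs of gels overlapped. The estimate was a log2 fold change of 0.08, with a 95% interval of -0.47 to 0.63 in the fit with the block. Between stiff col and soft col:rBM the log2 fold change was 0.38 (interval -0.17 to 0.92). This difference passed only where the 4 collagen libraries were fitted alone with the block, a choice made after seeing the data.

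OSMR (chr5:38845960-38945698, plus strand), the oncostatin M receptor chain, was at 3008 and 3931 normalized counts in soft IPN, 3325 and 2221 in stiff IPN, 2717 and 3023 in soft col:rBM, and 2762 and 2993 in stiff col. Both stiff col libraries were below both soft IPN libraries, by a small margin, and the other pairs of gels overlapped. The log2 fold change of stiff IPN against soft IPN was -0.34, with an interval of -0.85 to 0.17 in the fit with the block. Oncostatin M itself (OSM) did not exceed 1 normalized count in any library.

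JAK1 (chr1:65298906-65533437, minus strand), a kinase that docks on gp130, was at 2657 and 1838 normalized counts in soft IPN, 2327 and 1822 in stiff IPN, 3036 and 1907 in soft col:rBM, and 3281 and 1968 in stiff col. JAK2 (chr9:4984390-5129948, plus strand), a related kinase, was at 148 and 95, 147 and 106, 175 and 136, and 187 and 132 normalized counts in the same order. For both kinases replicate 2 was below replicate 1 in all 4 gels, with differences of -0.74 to -0.35 for JAK1 and -0.63 to -0.36 for JAK2 on the log2 scale, where 23.1% of all genes tested were lower in replicate 2 in every gel. The gels of each kinase overlapped, and between the IPNs the log2 fold changes were -0.10 for JAK1 (interval with the block -0.44 to 0.23) and 0.07 for JAK2 (-0.40 to 0.55).

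STAT3 (chr17:40465342-40540558, minus strand) had the narrowest range of the 9 tested genes. It was at 2461 and 2630 normalized counts in soft IPN, 2414 and 2465 in stiff IPN, 2202 and 2288 in soft col:rBM, and 2227 and 2304 in stiff col. Every library of the rBM-alginate gels was above every library of the collagen gels, by a small margin. The log2 fold change was -0.06 for stiff IPN against soft IPN (interval with the block -0.35 to 0.23) and 0.01 for stiff col against soft col:rBM (-0.28 to 0.31). It was -0.11 for stiff col against stiff IPN (-0.40 to 0.19) and -0.18 for soft col:rBM against soft IPN (-0.47 to 0.11). None of these 4 differences passed with or without the block in limma, and each interval with the block includes 0.

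SOCS3 (chr17:76352859-76356158, minus strand), the STAT3-induced inhibitor of gp130 and the kinases, was at 56 and 10 normalized counts in soft IPN, 41 and 25 in stiff IPN, 37 and 14 in soft col:rBM, and 46 and 16 in stiff col. Replicate 2 was below replicate 1 in all 4 gels, with differences of -2.37 to -0.69 on the log2 scale, and every gel overlapped every other. The mean was 33 normalized counts in both IPNs, yet the log2 fold change was 0.40, since the means of log values weigh the 10 in soft IPN more. The difference was -0.44 within replicate 1 and 1.24 within replicate 2, and the interval with the block was -0.61 to 1.41.

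EP300 (chr22:41488596-41576081, plus strand), an acetyltransferase that works with STAT3 and with many other transcription factors, was at 428 and 589 normalized counts in soft IPN, 432 and 371 in stiff IPN, 433 and 635 in soft col:rBM, and 444 and 519 in stiff col. Stiff IPN replicate 2 was the lowest library. Both stiff col libraries were above both stiff IPN libraries (log2 fold change 0.26, interval with the block -0.21 to 0.73), which did not pass. Between the IPNs the log2 fold change was -0.33 (interval -0.80 to 0.15).

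Counted over the members, 0 of 9 passed in any comparison without the block in limma, and 0 of all 13369 genes did. With the block, 2 of 9 (LIF and IL6R) passed between stiff IPN and soft IPN, beside 3.82% of all genes tested. Of these LIF was higher in stiff IPN, as were 1.69% of all genes, and IL6R was lower, as were 2.13%. LIF and IL6R also passed between stiff col and stiff IPN, beside 2.47% of all genes, with IL6R higher in stiff col (1% of all genes) and LIF lower (1.47%). At an unadjusted p under 0.05 without the block there were also 2 of 9 in each, beside 9.31% and 6.27% of all genes. The libraries of 2 of 9 members did not overlap between the IPNs, where 41.9% of all genes did not, and 4 of 9 did not overlap between stiff col and stiff IPN, where 30.9% did not. The median log2 fold change of the 9 was -0.06 between the IPNs (all genes -0.01) and 0.26 between stiff col and stiff IPN (all genes 0).

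Between stiff col and soft col:rBM, 0 of 9 passed with or without the block, as did 0 of all genes, while 1 of 9 at an unadjusted p under 0.05 stood beside 1.05% of all genes. Only LIF did not overlap there, where 19% of all genes did not. Between soft col:rBM and soft IPN, 0 of 9 passed with or without the block and 0 of 9 had an unadjusted p under 0.05 without it, where 0.0224% of all genes passed with the block and 1.42% had such a p. LIF (log2 fold change -1.02, SE 0.49) and STAT3 did not overlap, where 20.7% of all genes did not.

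The difference between stiff and soft in the collagen gels was compared directly with that in the IPNs. Since the collagen pair may also have differed in col-1 and rBM, this contrast does not isolate stiffness. For LIF the difference between stiff and soft in the collagen gels, less that in the IPNs, was -1.23 (log2, SE 0.69), and for IL6R it was 0.84 (SE 0.46). Neither passed in limma, with adjusted p = 1 for both without the block, and 0.573 for LIF and 0.313 for IL6R with it. With the block 0.015% of all genes passed, and at an unadjusted p under 0.05 without it there were 0 of 9 members, beside 2.08% of all genes. The intervals with the block were -2.67 to 0.21 for LIF and 0.33 to 1.35 for IL6R. In the F test of limma across the 4 gels, LIF and IL6R passed with the block (adjusted p = 0.0324 and 0.0302, beside 1.58% of all genes) and not without it (0.422 and 0.913), and the other 7 had adjusted p between 0.418 and 0.849 with the block. At an unadjusted p under 0.05 without the block there were 2 of 9 members, beside 5.25% of all genes.

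The rest of the pathway was followed in 6 lists of 73 further genes, of which 61 were tested. Among 8 other ligands of the family, 5 stayed under 10 normalized counts in every library, with 0 for IL27 and IL31, at most 1 for OSM, at most 2 for CNTF and at most 7 for EBI3. Of the 3 tested, 0 were called with the block between stiff col and stiff IPN, beside 2.47% of all genes tested, and 1 between the IPNs, beside 3.82%. It was CLCF1, a cytokine that signals through CNTFR, LIFR and gp130, at 163 and 198 normalized counts in soft IPN, 268 and 466 in stiff IPN, 217 and 275 in soft col:rBM, and 199 and 257 in stiff col. With the block it rose by 0.97 on the log2 scale in stiff IPN against soft IPN (adjusted p = 0.0409 in limma, 0.499 without), and without stiff IPN replicate 2 the value was 0.57. This call held in 1 of the 8 blocked fits that left out a library. The LIF receptor chain LIFR was at 174 and 102, 147 and 71, 140 and 134, and 178 and 168 normalized counts in the same order and was not called in either comparison.

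Of 6 other receptor genes 5 were tested. IL31RA, the gp130-like chain that pairs with OSMR, was at 321 and 227 normalized counts in soft IPN, 214 and 102 in stiff IPN, 428 and 225 in soft col:rBM, and 485 and 235 in stiff col. It rose with the block by 1.19 in stiff col against stiff IPN (adjusted p = 0.0279 in limma, 0.785 without), and without stiff IPN replicate 2 the value was 0.66. The call held in 4 of 8 blocked fits with a library left out. CNTFR did not exceed 3 normalized counts in any library.

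Of 8 other kinases and STATs 7 were tested. With the block 0 were called between the IPNs, beside 3.82% of all genes tested, and 1 between stiff col and stiff IPN, beside 2.47%. That was STAT4, at 422 and 100 normalized counts in soft IPN, 317 and 120 in stiff IPN, 446 and 113 in soft col:rBM, and 889 and 199 in stiff col. Its gels overlapped, and the log2 fold change of 1.10 (limma, adjusted p = 0.0472 in the blocked fit, 0.889 without) was 0.03 without stiff col replicate 1. It was called in 2 of 8 blocked fits with a library left out. Of 16 inhibitors (the other SOCS proteins, CISH, PIAS proteins and phosphatases) 15 were tested. In either comparison 0 were called, beside the same shares of all genes with the block and 0 without it. Their median log2 fold change between the IPNs was -0.17, beside -0.01 for all genes. An unadjusted p under 0.05 without the block was reached by 2 of 15, beside 9.31% of all genes. They were SOCS4 (0.83) and SOCS6 (0.55), both higher in stiff IPN and neither called with the block. Of the 5 coactivators besides EP300, 0 were called in either comparison, beside those same shares of all genes.

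Of 30 STAT3 target genes 26 were tested. The list was compiled from general knowledge with earlier results of these data known, so its counts beside the shares of all genes are not a test. With the block 4 of 26 were called between the IPNs, beside 3.82% of all genes tested, with 3 higher in stiff IPN (1.69% of all genes) and 1 lower (2.13%). In the comparison of stiff col with stiff IPN 4 of 26 were called, beside 2.47%, with 1 higher in stiff col (1% of all genes) and 3 lower (1.47%). The median over the list was -0.08 between the IPNs and 0.04 between stiff col and stiff IPN, beside -0.01 and 0 for all genes. LCN2, which encodes lipocalin 2, an iron-siderophore binding protein, was at 26 and 20 normalized counts in soft IPN, 258 and 441 in stiff IPN, 9 and 8 in soft col:rBM, and 18 and 23 in stiff col. Its level in stiff IPN was 14.2-fold that in soft IPN, by 3.83 on the log2 scale (limma, adjusted p = 0.00669 in the blocked fit and 0.243 without a block). Stiff col was 15.8-fold below stiff IPN, by -3.99 (limma, adjusted p = 0.00538 in the blocked fit and 0.131 without a block).

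SAA2, a serum amyloid A gene, was at 151 and 72 normalized counts in soft IPN, 341 and 586 in stiff IPN, 24 and 16 in soft col:rBM, and 66 and 98 in stiff col. Its log2 fold changes were 2.09 between the IPNs (adjusted p = 0.0451 with the block in limma, 0.491 without) and -2.46 between stiff col and stiff IPN (0.0331 and 0.330). SAA1 was at 2126 and 2361, 4218 and 6114, 373 and 696, and 808 and 1746 normalized counts, with log2 fold changes of 1.18 (adjusted p = 0.0366 with the block in limma, 0.501 without) and -2.10 (0.00781 and 0.330). SAA1 and SAA2 are near-identical copies, so how their reads were divided is uncertain. With a library left out of the blocked fit, the calls of LCN2 and SAA1 held in 7 of 8 fits between the IPNs and in 8 of 8 between stiff col and stiff IPN, and those of SAA2 in 5 of 8 and 3 of 8. SAA1 was also the only gene of the 6 lists called between soft col:rBM and soft IPN, with the block (log2 fold change -2.13, adjusted p = 0.05 in limma after rounding, 1 without).

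The called immediate early genes FOS and JUNB each had their lowest library in stiff IPN. FOS was at 2078 and 1412 normalized counts in soft IPN, 1093 and 405 in stiff IPN, 1809 and 931 in soft col:rBM, and 1489 and 812 in stiff col. It fell with the block by 1.36 on the log2 scale in stiff IPN against soft IPN (adjusted p = 0.0254 in limma, 0.519 without), and without stiff IPN replicate 2 the value was -0.65. JUNB was at 2998 and 2028, 1950 and 1532, 4295 and 2628, and 3660 and 2315 normalized counts, and rose with the block by 0.75 in stiff col against stiff IPN (adjusted p = 0.0415 in limma, 0.789 without), with 0.42 without stiff col replicate 1. With a library left out of the blocked fit, the call of FOS held in 7 of 8 fits and that of JUNB in 2 of 8.

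**Figure D3:**
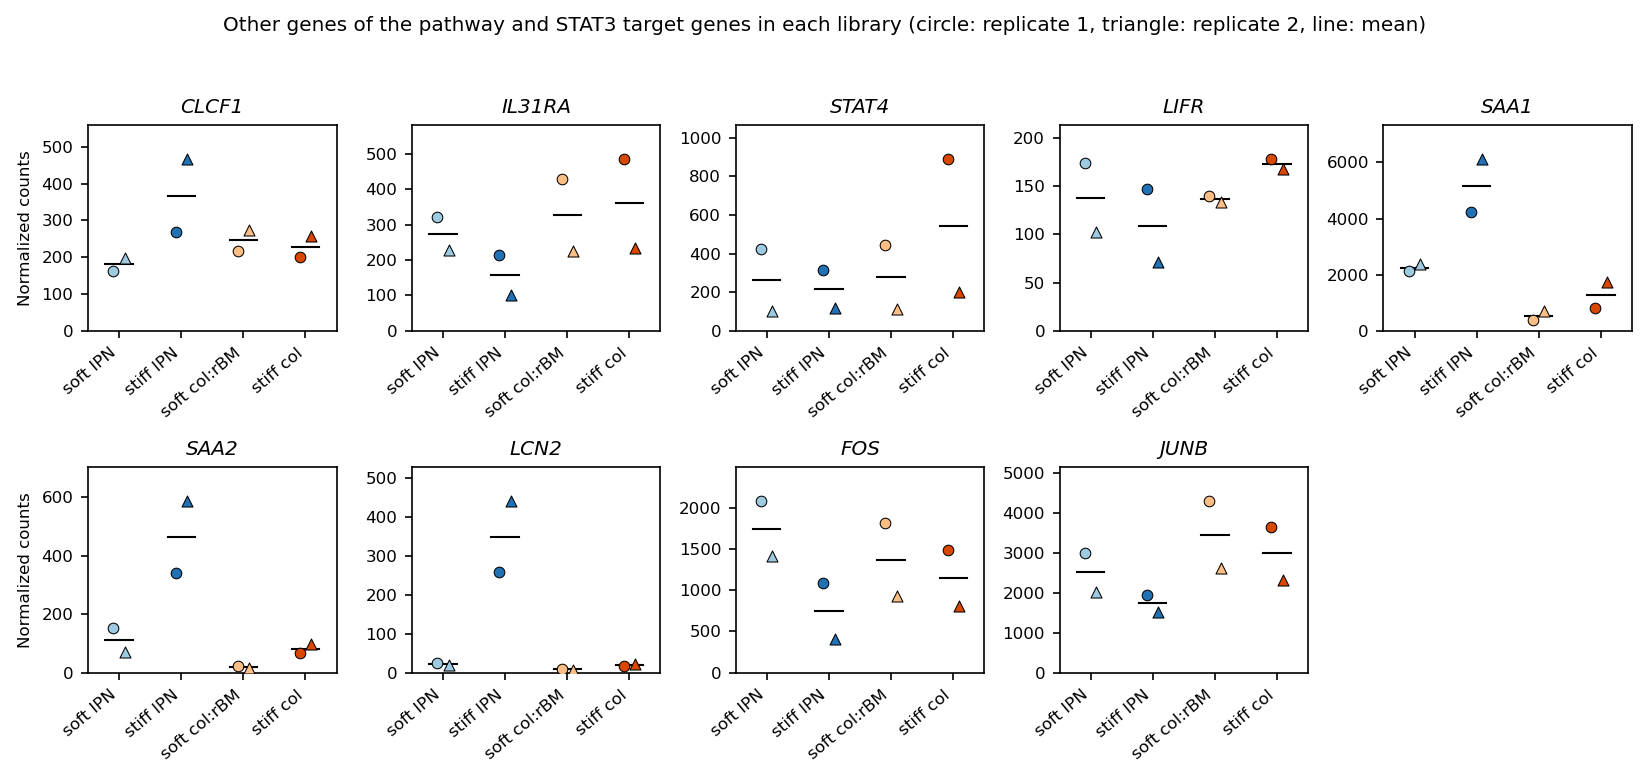
Normalized counts (y axes, linear, 1 scale per gene) in the 4 gels (x axes) of 8 further pathway and STAT3 target genes called with the replicate block and of LIFR, which was not; circles are replicate 1, triangles replicate 2 and lines the mean. CLCF1, SAA1, SAA2 and LCN2 show their highest mean in stiff IPN, where IL31RA, STAT4, FOS, JUNB and the uncalled LIFR show their lowest.

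The starts of these genes were searched for the letters of the STAT element, TTCNNNGAA, which reads the same on both strands. In the 250 bases before the RefSeq transcript start (GRCh38.p14), 0 of the 9 members with an entry held it, against 6.78% of 27305 promoters. A form with 1 base less between its arms, TTCNNGAA, was searched after the SOCS3 sequence had been read, and 3 of 9 held it, against 6.72% of all promoters. SOCS3 is 1 of these 3, so its match was known beforehand and the count is not a test. The 3 windows are shown because they include a gene that was called with the block (IL6R), the factor itself (STAT3) and its feedback inhibitor (SOCS3), each from 5′ to 3′ on the gene's strand with the match in capitals. They lie at chr1:154405093-154405342 (plus strand) for IL6R, chr17:42388443-42388692 (minus strand) for STAT3 and chr17:78360926-78361175 (minus strand) for SOCS3. The matches begin 248, 131 and 215 bases before the start, in that order.
IL6R: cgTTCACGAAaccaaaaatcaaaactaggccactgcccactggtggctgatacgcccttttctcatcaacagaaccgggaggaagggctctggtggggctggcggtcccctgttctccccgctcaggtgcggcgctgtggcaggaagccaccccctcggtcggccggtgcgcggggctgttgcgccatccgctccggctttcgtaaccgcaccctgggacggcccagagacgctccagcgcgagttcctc
STAT3: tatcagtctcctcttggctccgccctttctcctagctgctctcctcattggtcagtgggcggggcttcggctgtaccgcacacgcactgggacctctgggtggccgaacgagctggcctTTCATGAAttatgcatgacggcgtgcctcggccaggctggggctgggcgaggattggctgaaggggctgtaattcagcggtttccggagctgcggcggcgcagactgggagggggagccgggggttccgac
SOCS3: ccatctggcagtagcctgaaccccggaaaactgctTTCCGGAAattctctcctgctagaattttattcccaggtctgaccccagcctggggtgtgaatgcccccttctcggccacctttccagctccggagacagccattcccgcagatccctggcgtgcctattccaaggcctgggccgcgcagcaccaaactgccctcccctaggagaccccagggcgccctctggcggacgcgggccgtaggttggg
A match gives the letters in the window and not a site that STAT3 uses, and the lack of one says only that these letters are not in these 250 bases. Of the 3 genes, IL6R was lower in stiff IPN than in soft IPN with the block, and STAT3 and SOCS3 were not called in any comparison.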

How the data were processed

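RNA-seq libraries of MCF10A cells (TruSeq, HiSeq) from 4 gels with 2 replicates each were used, grouped by the gel named in their labels. Per the submitters' processing notes and the study's methods, the authors trimmed reads (Trim Galore 0.3.3), aligned them to hg19 (TopHat2 2.0.13 in the notes, Bowtie2 in the methods; SAMtools 1.1), removed multimapped reads and counted per gene with HTSeq. The annotation and strand setting are not given in the sources used here, so reads of overlapping genes on opposite strands cannot be told apart. The values the authors deposited are a signal, counts scaled by 1 factor per library (DESeq2) and rounded to whole numbers, so no count test was made. Between 13065615 and 18583116 reads per library, worked out from the factors, lay on genes. The level of 3 reads covers counting error only.

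Here, log2(normalized count + 1) of the 13369 genes with at least 10 normalized counts in at least 2 libraries was fitted over all 8 libraries with limma 3.58.1 (statmod 1.5.0, R 4.3.3; trend and robust settings), with 1 mean per gel. Fold changes on this scale understate those of low genes. Tests were two-sided, and p was adjusted by Benjamini-Hochberg over the 13369 genes, with a threshold of 0.05. Of the table's symbols 28 had become dates and are unassigned. Positions and exon lengths came from GENCODE 44 on hg19, and promoters from RefSeq (GRCh38.p14), with 9 of 10 members matched and LIF without an entry. Python 3.11.15 (numpy 2.4.6, pandas 2.3.3, matplotlib 3.10.9) made the tables and plots. The fits were also run on simulated data with known changes, and the outcome is not given here.

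The replicate numbers were taken to pair the libraries, since the study describes independent trials. Across genes, the change from replicate 1 to replicate 2 was also correlated between gels in all 6 pairs of gels (r 0.28 to 0.82). Values with this block are therefore printed beside those without it where they change a call. With 2 trials, p values without the block measure the spread between the trials within gels. With the block, the shift between trials that the gels share is removed, and p values measure the spread that remains. The members and lists were chosen with earlier results of these data known. Named were all members, and of each other list the genes called with or without the block, up to the 3 largest changes per list and comparison, except 1 gene that is not reported here. For LIF and SOCS3 the 3 most like genes by Pearson correlation, among genes with a mean of at least 50 normalized counts, were also named. LIFR, CNTFR, SOCS4, SOCS6, CD68 and the undetected ligands were named after their values were seen. JUNB was called but lay outside the 3 largest changes of its list, and was named in addition.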

Additional observations from a re-analysis of the deposited data

How the results depend on the processing

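Without the block, 0 members passed in every comparison under each rescaling (median-of-ratios, upper-quartile, TMM), pseudocount (0.5, 5) and filter, without trend and robust settings, and with the gels compared alone. The median log2 fold change of all genes stayed between -0.01 and 0.01 under each rescaling. With the replicate block, alone or, in alternatives chosen after seeing the data, with each of these choices, 2 members passed between the IPNs, between stiff col and stiff IPN, and in the F test. Exceptions were 0 in every comparison without trend and robust settings. Between stiff col and stiff IPN 1 passed with at least 10 in all libraries or only the gels compared. Between the collagen gels fitted alone 2 passed (LIF, IL6ST), and the share of all genes passing there is not given. Pairing by replicate changed no other call of a member. Leaving out 1 library without the block left every member uncalled. With the block, the members called changed with the library left out. The share of all genes called in those fits is not given, so their number is not a result about the members. Between the IPNs, LIF and IL6R each kept their call in 6 of 8 such fits with the block and lost it when either soft IPN library was left out. Between stiff col and stiff IPN, LIF kept it in 3 of 8 and IL6R in 4 of 8. Their adjusted p with the block and a library left out ran from 0.00141 to 0.39 for LIF and 0.00598 to 0.348 for IL6R between the IPNs, and from 0.00245 to 0.24 and 0.0133 to 0.213 between stiff col and stiff IPN. Directions of uncalled members that turned when a library was left out, as log2 ranges, were, between the IPNs, IL6ST (-0.36 to 0.52), OSMR (-0.74 to 0.06), JAK1 (-0.37 to 0.16), JAK2 (-0.24 to 0.39) and SOCS3 (-0.79 to 1.59), between stiff col and stiff IPN, OSMR (-0.32 to 0.48), JAK1 (-0.07 to 0.67), SOCS3 (-0.96 to 0.51) and EP300 (-0.05 to 0.58), and for IL6R between the collagen gels (-0.57 to 0.05) and between the soft gels (-0.29 to 0.40). The cause was not tested. A fit with 1 library left in a gel assumes that it varies like the other gels. Genes near the level of 3 reads, such as IL6 and OSM, cannot be compared at this depth.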

Other observations

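The replicates differed in several members in the same direction in every gel. On the log2 scale, replicate 2 minus replicate 1 was -2.37 in soft IPN, -0.69 in stiff IPN, -1.34 in soft col:rBM and -1.47 in stiff col for SOCS3. JAK1 and JAK2 were also lower in replicate 2 in 4 of 4 gels, with mean differences of -0.57 and -0.49. IL6R and STAT3 were higher in replicate 2 in 4 of 4 gels, with mean differences of 0.52 and 0.06. Over all genes tested, 21.4% were higher and 23.1% lower in replicate 2 in all 4 gels. LIF had no common direction, with -0.65 in soft IPN, 1.39 in stiff IPN, 0 in soft col:rBM and 0.07 in stiff col.

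The tested genes whose log2 levels over the 8 libraries were most like those of LIF were REEP5 (Pearson r 0.981), which encodes a protein of the endoplasmic reticulum, NUP50-AS1 (0.975), an antisense RNA, and LCN2 (0.973). REEP5 was at 2181 and 2186 normalized counts in soft IPN, 2578 and 3069 in stiff IPN, 2055 and 1994 in soft col:rBM, and 2174 and 2271 in stiff col. For SOCS3 they were METTL5 (0.993), CNBP (0.992) and PTPN2 (0.988), a phosphatase among the inhibitors listed. METTL5 was at 1140 and 497, 1091 and 822, 959 and 614, and 1116 and 650 normalized counts in the same order, lower in replicate 2 of every gel as SOCS3 was. The points of each correlation share the 8 libraries, their depth and the difference between replicates, and no p is given.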
